A study of Mus musculus with 28 samples.

Results

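Bone morphogenetic proteins (BMPs) and growth and differentiation factors (GDFs), with the secreted and nuclear proteins that shape their signals, were followed by the expression of 10 genes in cells of the embryonic mouse vertebral column. The set holds 5 ligands (*Bmp4*, *Bmp5*, *Bmp7*, *Gdf5* and *Gdf10*), 4 secreted modulators (*Bmper*, *Nog*, *Chrd* and *Grem1*) and 1 gene that answers to BMP signals (*Id4*). They were chosen by symbol, as all array probes that the platform annotation assigns to those names, which gave 14 of the 45281 probes on an Illumina MouseWG-6 BeadChip. At E12.5, midway through gestation, cells were dissociated from vertebral columns, sorted on EGFP and profiled, each biological replicate being the sorted cells of 2 columns. EGFP-positive cells, EGFP(+), came from 5 genotypes on 1 hybrid background (129Sv/C57BL/6/129X1/129S1), and the groups were Pax1-/-Pax9-/- (3 replicates), Pax1-/-Pax9+/- (3), Pax1-/- (5), Pax1+/- (5), WT (5) and EGFP-negative cells, EGFP(-) (3). In WT, Pax1 WT:+/EGFP in the study's notation, the reporter was joined through a 2A peptide to a *Pax1* that stays functional. The Pax1- allele carries an EGFP cassette that disrupts the paired box, so the sort follows *Pax1* transcription in WT, Pax1+/- and Pax1-/- cells. The Pax9- allele also carries an EGFP cassette, so in both compound mutants EGFP marks cells that transcribe *Pax1* or *Pax9*. No genotype is given in the labels for EGFP(-) cells.

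BMP and GDF ligands are secreted dimers that bind paired type I and type II serine/threonine kinase receptors, which then phosphorylate SMAD proteins that enter the nucleus. Outside the cell, Noggin, Chordin and Gremlin bind the ligands and keep them from their receptors, while BMPER binds them and can raise or lower signalling depending on its amount. In the axial skeleton BMP signals drive sclerotome cells, once primed by Shh from the notochord, into cartilage, and GDF5 is best known from developing joints. The ID proteins lack a DNA-binding region and hold back basic helix-loop-helix factors, and several *Id* genes are direct targets of BMP signalling.

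Levels are given as log2 intensity after background correction and quantile normalization, with arrays that carried the same group and replicate name averaged (28 arrays, 24 replicates). A probe without signal lay near 4.49 on this scale, the median of the probes left out as undetected. A gene was called when its Benjamini-Hochberg adjusted p from limma, taken over all 13373 genes tested, was under 0.05 and its change was at least 1.5-fold. The arrays lay on 5 BeadChips. All 6 compound mutant arrays were on chip 1, and no array of another group was. Pax1-/- and WT arrays were on chips 2 to 5, and Pax1+/- and EGFP(-) arrays on chips 3 to 5. In comparisons of compound mutants with other groups, chip 1 and the compound genotypes can therefore not be told apart. Chips 1 and 2, whose numbers lie close together, had 42.2 to 44.2% of probes detected, against 45.4 to 50.6% on chips 3 to 5. Comparisons of compound mutants are therefore also given with chips 1 and 2 alone and with that split (chip series) as a term. Neither setting removes an effect of chip 1 itself. In fits with a chip or chip series term each array was its own sample, so same-named arrays were not averaged there.

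The targeted genes were checked first. The *Pax9* probe read 6.81 in the library labelled Pax1-/-Pax9-/- replicate B1, against 4.73 and 4.77 in replicates B2 and B3 and 6.54 to 6.89 in Pax1-/-Pax9+/- cells. The first of these libraries therefore did not show the loss of *Pax9* signal seen in the other two, and the called differences of that genotype from WT are also given without it. In EGFP(-) replicates B1, B2 and B3 the *Pax1* probe ILMN_2561517 read 9.02, 8.04 and 4.46 and ILMN_2816956 read 8.03, 7.19 and 4.95, so B1 and B2 kept *Pax1* signal above background and B3 was near it. Both *Pax1* probes stayed bright on the Pax1-/- arrays. ILMN_2561517 read 10.79 to 11.28 there, below its WT range of 11.51 to 11.84. ILMN_2816956 read 10.49 to 11.40, against 10.34 to 11.35 in WT. The position of the *Pax1* and *Pax9* probes relative to the cassettes was not determined here, so they do not check the alleles. The paper reports no considerable change of *Pax9* expression in its compound mutants. Sclerotome markers summed to 6534 to 8195 linear units in WT and 1129 to 2455 in EGFP(-) cells, and 6 of the 7 were higher in WT.

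Of the 14 member probes, 12 were kept because their detection p was under 0.05 on at least 3 arrays, and each of the 10 genes kept at least 1. The probes left out were the second probes of *Bmp7* and *Id4*, which were detected on 0 arrays. *Gdf10*, *Bmper*, *Chrd*, *Grem1* and *Id4* were detected on all 28 arrays, *Bmp5* on 27 and *Bmp7* on 26. *Gdf5* was detected on 21 arrays by 1 probe and on 4 by the other. *Nog* was detected on 3 arrays only, so its values carry almost no information on a change. *Bmp4* has probes of very unequal use: ILMN_1215252 was detected on 28 arrays and ILMN_1235698 on 3 (2 of WT, 1 of Pax1+/-).

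**Figure D1:**
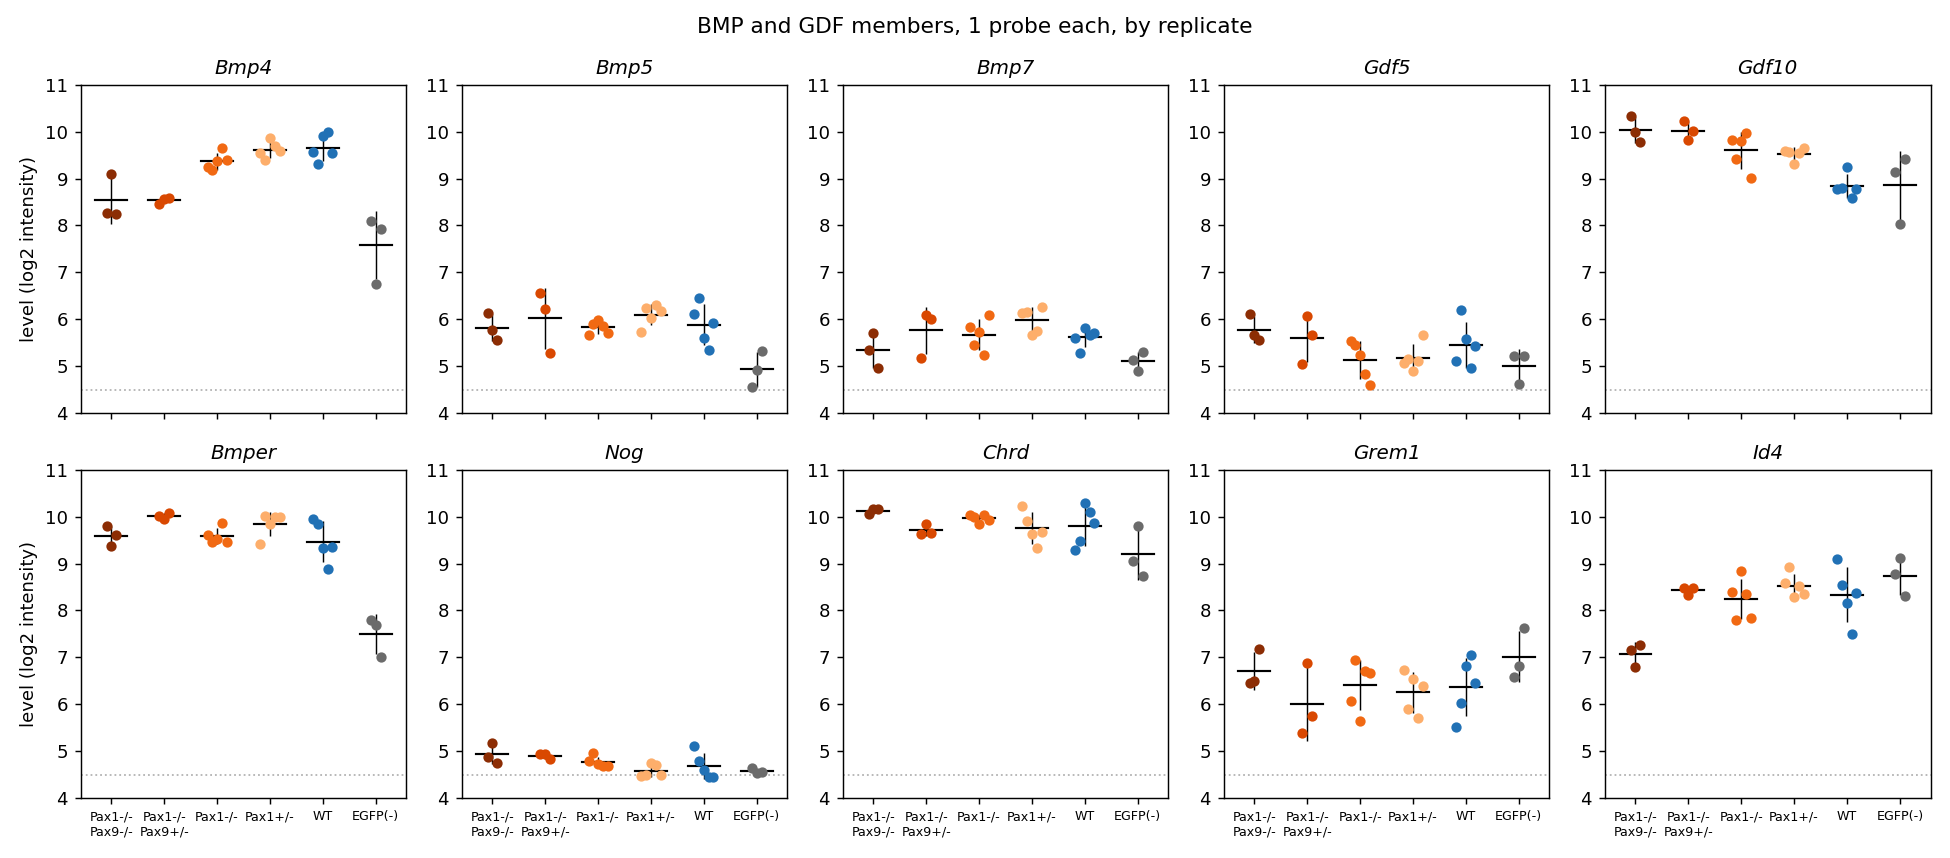
Level (log2 intensity) of the 10 members in each replicate (points) by group, with the group mean (bar) and 1 SD (line) and, dotted, the median level of undetected probes. *Bmp4*, *Bmp7*, *Gdf5* and *Id4* are shown by their more often detected probe. *Bmp4* and *Bmper* are low in EGFP(-) cells, *Gdf10* is highest on average in the compound mutants, *Id4* is low in Pax1-/-Pax9-/- cells, and *Nog* stays near the dotted line.

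The sort was examined by comparing WT EGFP(+) with EGFP(-) cells. Of the 10 members 3 were called, all higher in WT (*Bmper*, *Bmp4* and *Bmp5*), where 16.4% of all genes tested were called in either direction. *Bmper* (chr9:23223076-23485215, GRCm38.p6), a secreted regulator of BMP activity, read 9.34, 9.33, 8.88, 9.96 and 9.83 in WT replicates, against 7.01, 7.80 and 7.68 in EGFP(-) replicates. Every WT value lay above every EGFP(-) value, and 19.8% of all genes tested likewise had groups that did not overlap. The *Bmper* difference was 3.93-fold (log2 1.98, SE 0.23, limma adjusted p = 3.68e-06). The difference was log2 1.31, 2.04 and 2.33 within chips 3, 4 and 5. In sorted pools fewer cells that express a gene and less RNA per cell cannot be told apart.

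*Bmp4* (chr14:46383525-46390669), a ligand needed to form mesoderm and active in many later tissues, was higher in WT cells by log2 1.18 as the mean of its probes (SE 0.16, limma adjusted p = 1.85e-05). Averaging with the dim probe lowers that value. On its own, probe ILMN_1215252 read 9.54, 9.91, 9.99, 9.56 and 9.31 in WT, against 7.92, 8.09 and 6.76 in EGFP(-) cells. These groups did not overlap (at gene level 19.8% of all genes did not), and the difference was 4.21-fold (log2 2.07, SE 0.24). It passed the same thresholds among all 27688 kept probes, of which 13.5% did (limma adjusted p = 6.65e-06). Within chips 3, 4 and 5 it was log2 1.86, 3.14 and 1.62. The EGFP(-) values, in the order B1, B2 and B3, were lowest in B3, the replicate with the least *Pax1* signal, and without it the difference of that probe was 1.66 (adjusted p = 1.01e-05). The part of cells with *Pax1* signal in the EGFP(-) values was not tested.

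*Bmp5*, a ligand known from the mouse short-ear mutant for its part in skeletal condensations, read 5.92, 5.60, 5.34, 6.11 and 6.46 in WT, against 5.31, 4.56 and 4.91 in EGFP(-) cells. It was 1.94-fold higher in WT (limma adjusted p = 0.00307), with signals close to background in EGFP(-), where 2 of 3 arrays detected it. Within chips 3, 4 and 5 the difference was log2 0.91, 0.96 and 0.61, the last not called (adjusted p = 0.231), and on the log2 values the authors deposited it was 0.45, under the 1.5-fold limit.

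The remaining members were not called in this comparison. *Chrd* read 9.29 to 10.29 in WT against 8.74 to 9.79 in EGFP(-) cells (log2 0.60, adjusted p = 0.0895), *Bmp7* differed by 0.51 (adjusted p = 0.0644) and *Gdf5* by 0.34. Within chips 3, 4 and 5 *Chrd* differed by log2 1.13 (called), -0.46 (not called) and 1.13 (called), so its direction on chip 4 was opposite. It was called without WT replicate B5 (0.73, adjusted p = 0.0407) or EGFP(-) replicate B3 (0.90, adjusted p = 0.0156), and *Bmp7* without WT replicate B7 (0.60, adjusted p = 0.0345). *Gdf10* averaged 8.84 ± 0.25 (SD, n = 5) in WT and 8.86 ± 0.74 (SD, n = 3) in EGFP(-) cells, with a 95% interval for the log2 difference of -0.56 to 0.52. *Grem1* and *Id4* leaned the other way by -0.64 (adjusted p = 0.235) and -0.40 (adjusted p = 0.387). EGFP(-) cells held other tissues: erythroid markers summed to 440.7 to 4466 in WT against 12730 to 16790 in EGFP(-) cells, with 4 of 5 lower in WT, neuronal markers to 353.8 to 591.7 against 1302 to 2088, with 4 of 6 lower, and macrophage markers to 128.1 to 327.2 against 800.5 to 2494, with 5 of 5 lower. The part of these cells in the member values was not tested.

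**Figure D2:**
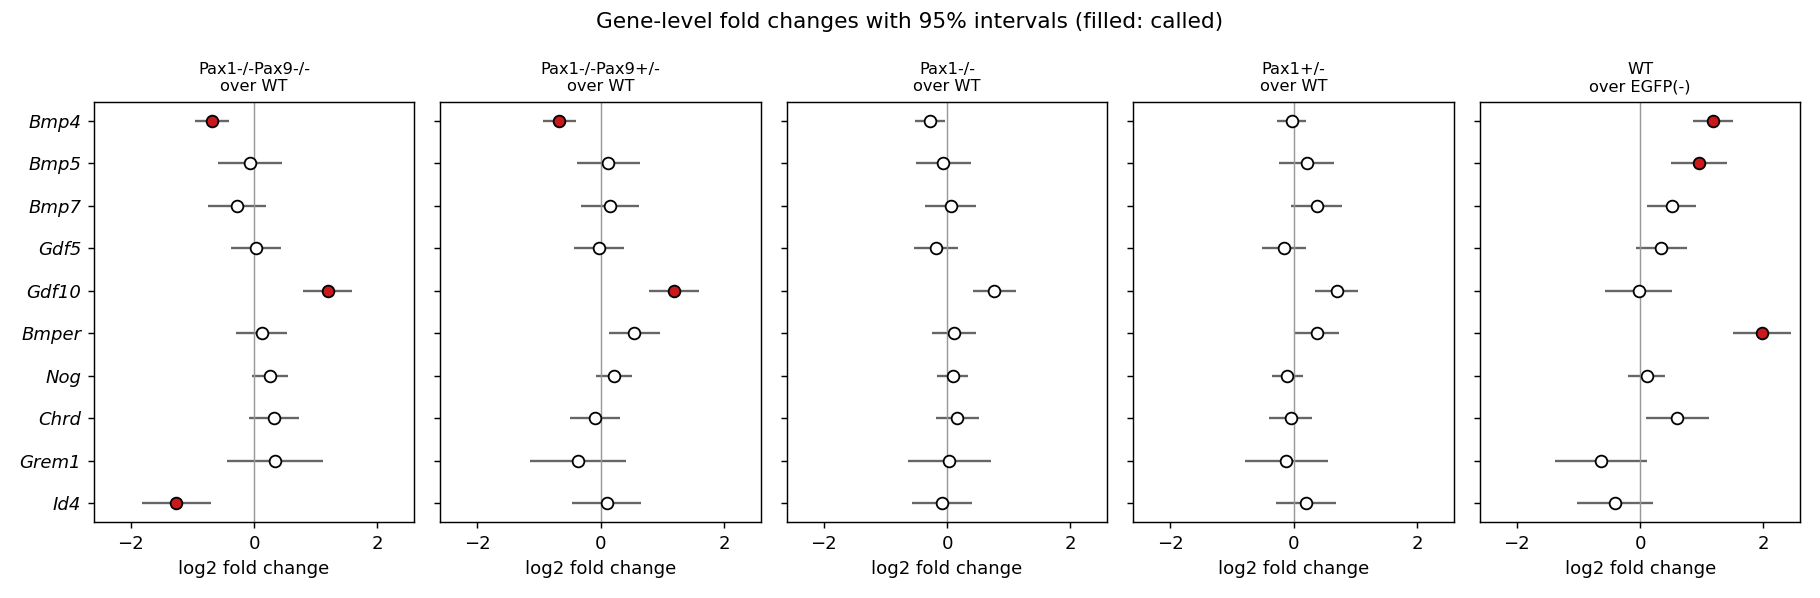
Log2 fold change of each member at gene level (point) with its 95% interval (line) in 5 comparisons. Filled points were called. *Bmp4* was called in 3 of them, up in WT over EGFP(-) and down in both compound mutants, and *Gdf10* was called up in both compound mutants.

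Loss of 1 or both copies of *Pax1* alone moved none of the 10 members past the thresholds, with 0.419% of genes called in Pax1+/- and 0.247% in Pax1-/- cells, each against WT. By an unadjusted p under 0.05, *Gdf10* and *Bmper* passed in Pax1+/- cells and *Bmp4* and *Gdf10* in Pax1-/- cells. Of all 13373 genes, 1855 passed so in Pax1+/- and 1294 in Pax1-/- cells. In the compound mutants 2 members were called in Pax1-/-Pax9+/- cells, *Gdf10* higher and *Bmp4* lower, where 4.78% of genes were called. In Pax1-/-Pax9-/- cells 3 were called, *Gdf10* higher and *Bmp4* and *Id4* lower, where 6.86% of genes were called. These 4 comparisons share the WT replicates. In the compound mutants the sort also differed from WT, since EGFP marked *Pax1* or *Pax9* transcription there, and the part of this was not tested.

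*Gdf10* (chr14:33923587-33936514), a ligand also named BMP3b, was called in both compound mutants. Its levels were 10.33, 9.98 and 9.78 in Pax1-/-Pax9-/- replicates and 10.24, 9.83 and 10.01 in Pax1-/-Pax9+/- replicates. In Pax1-/- cells it read 9.004, 9.43, 9.80, 9.82 and 9.98, in Pax1+/- cells 9.55, 9.66, 9.59, 9.57 and 9.31, and in WT 8.78, 9.26, 8.58, 8.79 and 8.80. All compound mutant and all Pax1+/- values lay above the highest WT value, while 1 of 5 Pax1-/- values lay inside the WT range. Of all genes, 13.1% did not overlap with WT in Pax1-/-Pax9-/-, 11.8% in Pax1-/-Pax9+/- and 2.44% in Pax1+/- cells.

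Against WT, *Gdf10* was 2.28-fold higher in Pax1-/-Pax9-/- cells (log2 1.19, SE 0.19, limma adjusted p = 0.000927) and likewise 2.28-fold higher in Pax1-/-Pax9+/- cells (log2 1.19, adjusted p = 0.00347). In Pax1-/- cells the log2 difference was 0.77 (SE 0.17, adjusted p = 0.0511) and in Pax1+/- cells 0.70 (SE 0.17, adjusted p = 0.0638), both short of the threshold. Without WT replicate B3 both were called (0.87, adjusted p = 0.0366, in Pax1-/- and 0.80, adjusted p = 0.0374, in Pax1+/- cells), as was the first without Pax1-/- replicate B1 (0.92, adjusted p = 0.0207). The Pax1-/- difference was called with chip series as a term (0.80, limma adjusted p = 0.0127), where same-named arrays were not averaged. It was also called with each array as its own sample and no chip term, and not with replicate names as a block (0.76, adjusted p = 0.193). Within chips it was 1.01, 0.58, 1.04 and 0.22 on chips 2, 3, 4 and 5.

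With chips 1 and 2 alone, *Gdf10* was higher by log2 1.28 in Pax1-/-Pax9-/- cells (limma adjusted p = 0.0156) and by 1.28 in Pax1-/-Pax9+/- cells (adjusted p = 0.0876, not called), and with chip series as a term by 1.16 (adjusted p = 0.00783) and 1.15 (adjusted p = 0.0437). Without the library labelled Pax1-/-Pax9-/- B1 the difference was 1.04 (adjusted p = 0.00883). Of 5 tendon and joint markers, *Scx*, the tendon factor Scleraxis, was called higher in each compound mutant and *Osr2* lower in Pax1-/-Pax9+/- cells, with a median log2 difference from WT over the list of -0.17 in Pax1-/-Pax9-/- and 0.18 in Pax1-/-Pax9+/- cells. Their sums were 1462 to 1896 in Pax1-/-Pax9-/- and 1873 to 2116 in Pax1-/-Pax9+/- cells, against 1108 to 1715 in WT, so those of Pax1-/-Pax9-/- and WT overlapped. Their part in the *Gdf10* difference was not tested.

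The promoter of *Gdf10*, the member called higher in both compound mutants, is shown from RefSeq (GRCm38.p6, chr14:33923337-33923636, plus strand, 250 bases before to 50 after the start), with a match to GGCGCC, a GC-rich element that BMP SMADs can bind, in capitals.
Gdf10: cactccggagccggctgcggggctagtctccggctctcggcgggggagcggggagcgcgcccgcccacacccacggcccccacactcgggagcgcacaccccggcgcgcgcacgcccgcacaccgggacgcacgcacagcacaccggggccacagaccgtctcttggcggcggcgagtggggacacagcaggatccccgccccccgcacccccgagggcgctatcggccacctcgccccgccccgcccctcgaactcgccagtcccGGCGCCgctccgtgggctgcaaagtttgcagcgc

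The match begins 16 bases after the start. GGCGCC, which reads the same on both strands, occurs in 11.9% of 32851 RefSeq promoters of that length, and of the 7 members with a promoter there, *Gdf10*, *Id4*, *Chrd* and *Grem1* held 1 match each. GCGTGAC, the core of many sites bound by paired domains, was searched on both strands and was in none of the 7, with 2.09% of all promoters holding it. A match or its lack is a description of these letters only.

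*Bmp4* fell in both compound mutants. Probe ILMN_1215252 read 8.26, 9.11 and 8.24 in Pax1-/-Pax9-/- replicates and 8.46, 8.57 and 8.58 in Pax1-/-Pax9+/- replicates. It read 9.41, 9.18, 9.37, 9.26 and 9.64 in Pax1-/-, 9.71, 9.58, 9.55, 9.39 and 9.86 in Pax1+/-, and 9.54, 9.91, 9.99, 9.56 and 9.31 in WT. All 6 compound mutant values lay under the lowest WT value, and 1 of them, Pax1-/-Pax9-/- B2, came near the Pax1-/- range. At gene level 13.1% of all genes did not overlap with WT in Pax1-/-Pax9-/- and 11.8% in Pax1-/-Pax9+/- cells.

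As the mean of its probes *Bmp4* was lower than in WT by log2 -0.68 in Pax1-/-Pax9-/- cells (SE 0.13, limma adjusted p = 0.00358) and by -0.67 in Pax1-/-Pax9+/- cells (adjusted p = 0.00875). By probe ILMN_1215252 alone the differences were -1.13 (adjusted p = 0.00156, 7.43% of kept probes called) and -1.12 (adjusted p = 0.00476, 5.31% called), so 45.8% and 45.9% of the WT signal was left. The dim probe was detected on 0 of the 6 compound mutant arrays and gave no measured fold.

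The fall of *Bmp4* moved with the chips. On chip 2, ILMN_1215252 read 9.22 and 9.31 on the WT arrays and 9.06 to 9.28 on the Pax1-/- arrays, while on chips 3 to 5 WT arrays read 9.54 to 9.99. With chips 1 and 2 alone the log2 differences of that probe from WT were -0.73 in each compound mutant (adjusted p = 0.297 in Pax1-/-Pax9-/- and 0.48 in Pax1-/-Pax9+/-, not called), and those of the gene mean -0.33 (adjusted p = 0.482) and -0.32 (adjusted p = 0.71). With chip series as a term they were -0.83 in each (adjusted p = 0.018, called, in Pax1-/-Pax9-/- and 0.0864 in Pax1-/-Pax9+/-), while the gene mean was called in neither (adjusted p = 0.0823 and 0.208). Without the library labelled Pax1-/-Pax9-/- B1 the probe differed from WT by -0.99 (adjusted p = 0.0123) and the gene mean by -0.59 (adjusted p = 0.0228), both called.

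**Figure D3:**
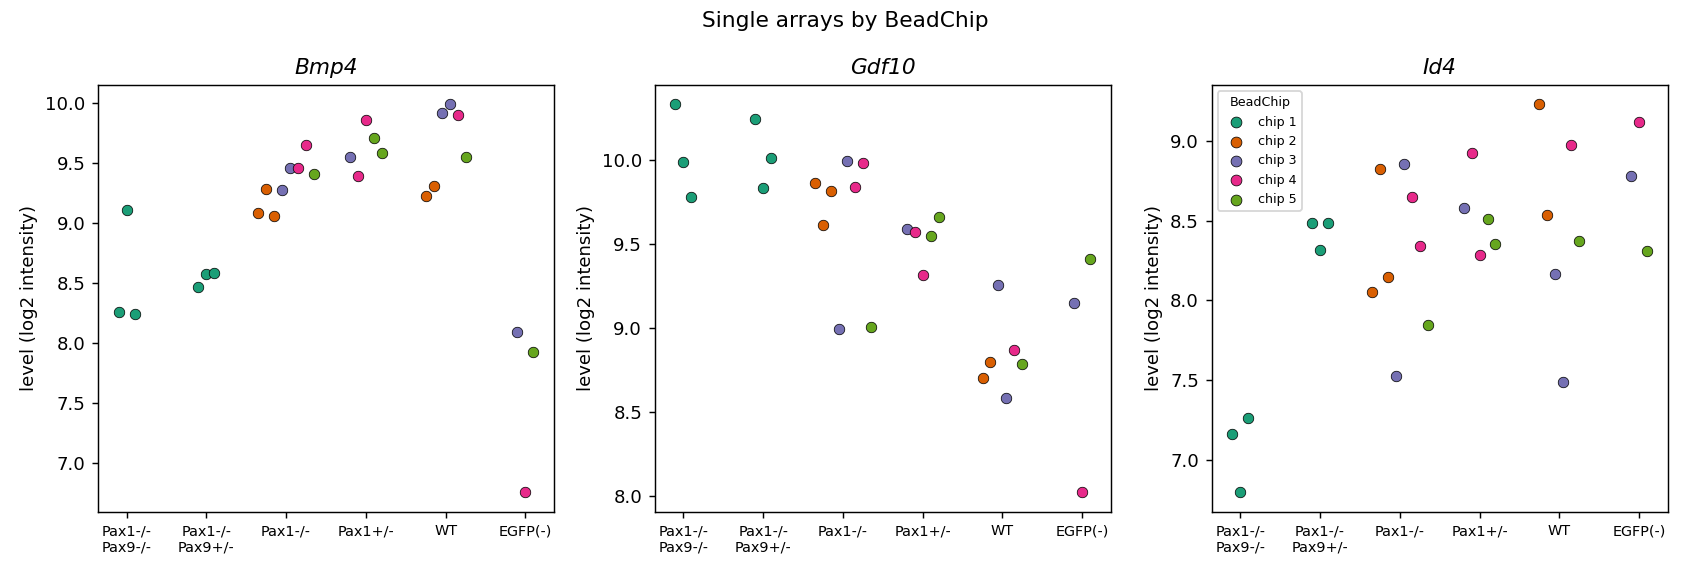
Level (log2 intensity) on each single array of the brighter *Bmp4* probe and the *Gdf10* and *Id4* probes, by group, coloured by BeadChip. For *Bmp4* the 2 WT arrays on chip 2 lie at 9.22 and 9.31, under the other WT arrays and above the 6 compound mutant arrays on chip 1. For *Gdf10* the WT arrays of all chips lie under the compound mutants.

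The *Bmp4* promoter is set beside that of *Gdf10* because both genes lie on chromosome 14 and were called in opposite directions (GRCm38.p6, chr14:46390620-46390919, minus strand). It held neither motif, so nothing is in capitals.
Bmp4: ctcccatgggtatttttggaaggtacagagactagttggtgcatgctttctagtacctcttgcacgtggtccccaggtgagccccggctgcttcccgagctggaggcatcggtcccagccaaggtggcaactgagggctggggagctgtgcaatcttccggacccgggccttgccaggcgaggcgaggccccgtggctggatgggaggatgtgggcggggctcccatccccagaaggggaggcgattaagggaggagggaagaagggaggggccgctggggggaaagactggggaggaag

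*Id4* (chr13:48261116-48266028) was called in Pax1-/-Pax9-/- cells. It read 7.16, 6.80 and 7.26 there, against 8.48, 8.32 and 8.49 in Pax1-/-Pax9+/- cells. The other groups read 7.84, 7.79, 8.84, 8.40 and 8.34 (Pax1-/-), 8.51, 8.35, 8.58, 8.92 and 8.28 (Pax1+/-), 8.37, 8.16, 7.49, 9.10 and 8.53 (WT), and 8.31, 8.78 and 9.12 (EGFP(-)). The 3 Pax1-/-Pax9-/- values lay below every other replicate. Against WT alone, 13.1% of all genes had groups that did not overlap, in either direction. The share of genes set apart from every other replicate was not counted.

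*Id4* was 2.40-fold lower in Pax1-/-Pax9-/- cells than in WT (log2 -1.26, SE 0.27, limma adjusted p = 0.00711). In Pax1-/-Pax9+/- cells it differed from WT by 0.10 (95% interval -0.46 to 0.66). With chips 1 and 2 alone the first of these was larger, -1.81 (adjusted p = 0.0159), with chip series as a term -1.60 (adjusted p = 0.00803), and without the library labelled Pax1-/-Pax9-/- B1 it was -1.30 (adjusted p = 0.0193). It was not called when only the compared groups were fitted (adjusted p = 0.0815). Of 5 endothelial markers 1 was called higher in Pax1-/-Pax9-/- cells than in WT (*Tek*, log2 2.75). The median over the list was log2 0.48 and the lowest, *Tie1*, -0.26. The list summed to 356 to 506.2 in Pax1-/-Pax9-/- cells, against 137.5 to 212.5 in WT. *Tek* (mean 7.88 against 5.14 in WT) weighs most in that sum, while *Kdr* (4.87) and *Tie1* (4.48) lay near background in Pax1-/-Pax9-/- cells. Of 7 sclerotome markers 3 were called lower (*Pax1*, *Pax9* and *Col2a1*) and 1 higher (*Meox1*). The list summed to 5825 to 5988 in Pax1-/-Pax9-/- cells, against 6534 to 8195 in WT. Of the markers not called, *Foxc2* averaged 11.34 against 11.03 in WT and *Sox9* 9.48 against 9.89. *Pax1* and *Pax9* are the disrupted genes themselves, and the lower *Pax9* signal here differs from the paper, which reports no considerable change of it. The paper reports *Col2a1* as directly regulated by Pax9. A lower sum of this list can therefore not show whether fewer sclerotome cells were present. The part of the endothelial and sclerotome markers in the *Id4* difference was not tested.

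The *Id4* promoter, shown because its gene had the lowest values of all replicates in Pax1-/-Pax9-/- cells (GRCm38.p6, chr13:48260866-48261165, plus strand), has its GGCGCC match 148 bases before the start, in capitals.
Id4: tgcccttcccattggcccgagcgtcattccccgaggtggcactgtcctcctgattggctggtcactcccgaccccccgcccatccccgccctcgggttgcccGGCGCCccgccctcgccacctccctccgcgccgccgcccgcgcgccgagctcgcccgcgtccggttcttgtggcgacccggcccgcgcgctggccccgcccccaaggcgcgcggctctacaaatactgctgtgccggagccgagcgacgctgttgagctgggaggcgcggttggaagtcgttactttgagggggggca

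**Figure D4:**
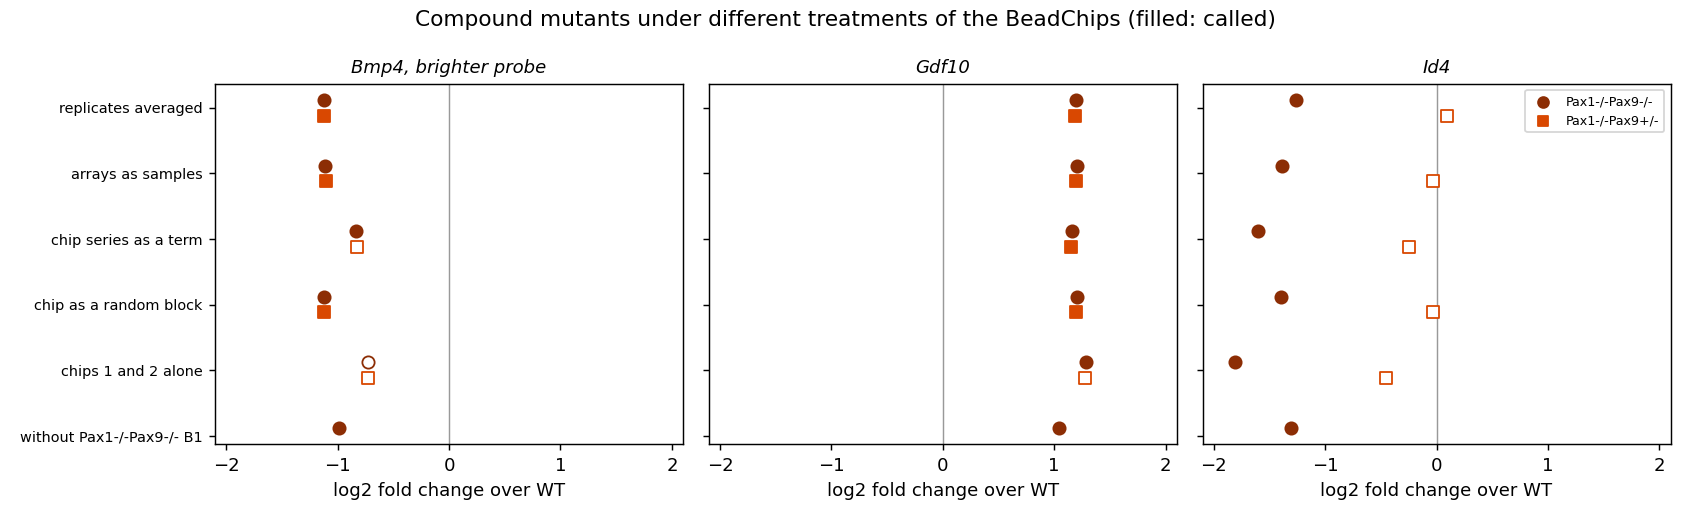
Log2 fold change over WT of *Bmp4* (brighter probe), *Gdf10* and *Id4* in Pax1-/-Pax9-/- (circles) and Pax1-/-Pax9+/- cells (squares) under 6 treatments of the arrays; filled symbols were called. *Gdf10* lies between 1.04 and 1.28 over all points, 1.04 being Pax1-/-Pax9-/- without replicate B1. *Bmp4* is -0.73 with chips 1 and 2 alone, and *Id4* in Pax1-/-Pax9-/- cells lies between -1.26 and -1.81. The last treatment leaves out a Pax1-/-Pax9-/- library, so only circles are drawn there.

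The *Pax9* copies were taken 1 at a time in cells already without *Pax1*. Unlike in Pax1-/- cells, EGFP also marked *Pax9* transcription in the compound mutants, and the part of this was not tested. Between Pax1-/-Pax9+/- and Pax1-/- cells, 0 of 10 members were called at gene level although 8.14% of genes were. By an unadjusted p under 0.05, 3 members passed (*Bmp4*, *Gdf10* and *Bmper*), as did 3611 of all 13373 genes. *Bmp4* was lower by log2 -0.39 as a mean of probes (adjusted p = 0.0588) and by -0.83 by ILMN_1215252 alone (SE 0.19, adjusted p = 0.00911), a call that 9.09% of kept probes shared. With chips 1 and 2 alone that probe differed by -0.60 (adjusted p = 0.275) and with chip series as a term by -0.53 (adjusted p = 0.172). *Gdf10* was higher by 0.42 (adjusted p = 0.165).

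Between Pax1-/-Pax9-/- and Pax1-/-Pax9+/- cells, all on chip 1, 0 of 10 members were called and 0.314% of genes were. Of the members *Id4* alone passed an unadjusted p under 0.05, as did 1121 of all 13373 genes. The *Id4* groups did not overlap, nor did those of *Bmper* and *Chrd*, and the same held for 15.4% of all genes. *Id4* was lower by log2 -1.36 (SE 0.30, 95% interval -1.99 to -0.73), and its limma adjusted p of 0.057 missed the threshold. It was called when those groups alone were fitted (adjusted p = 0.0446), and without the library labelled Pax1-/-Pax9-/- B1 it differed by -1.40 (adjusted p = 0.0973). *Gdf10* and *Bmp4* differed by 0.00 (95% interval -0.44 to 0.45) and -0.02 (95% interval -0.32 to 0.29). The change from the first to the second step was tested directly and passed for 0 of 10 members, where 0.209% of genes passed an adjusted p under 0.05. Unadjusted, *Bmper* and *Id4* passed, as did 1818 of all 13373 genes. For *Id4* the steps differed by -1.55 (adjusted p = 0.174).

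The other 7 members showed no called difference between genotypes at gene level. *Bmper* averaged 9.59 ± 0.21 in Pax1-/-Pax9-/- and 10.02 ± 0.06 in Pax1-/-Pax9+/- cells (SD, n = 3 each), against 9.47 ± 0.43 in WT (SD, n = 5). It leaned up in Pax1-/-Pax9+/- cells (log2 0.55, adjusted p = 0.0931) and was called there when WT replicate B5 (0.67, adjusted p = 0.0346) or B7 (0.64, adjusted p = 0.0338) was left out, while with chips 1 and 2 alone it differed by 0.00. *Chrd* averaged 10.13 ± 0.06 in Pax1-/-Pax9-/- cells (SD, n = 3) and 9.80 ± 0.42 in WT (SD, n = 5), a log2 difference of 0.33 (adjusted p = 0.297) that was 0.77 and called with chips 1 and 2 alone (adjusted p = 0.0354).

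*Grem1* replicates spread between 5.52 and 7.05 in WT, and its differences from WT ran between -0.37 and 0.34. *Bmp5*, *Bmp7*, *Gdf5* and *Nog* differed from WT by -0.28 to 0.37 in the 4 mutant genotypes. In 4 cases, 3 of Pax1-/- and 1 of WT, arrays with the same replicate name lay on chip 2 and on chip 3 or 4. Their log2 differences, chip 2 minus the other chip, ran over -1.29 to 0.77 for *Bmp7* and -0.62 to 0.94 for *Grem1*. They ran over -0.38 to 0.87 for *Gdf10*, 0.16 to 0.95 for *Bmper* and -0.50 to 0.53 for *Id4*. For *Bmp4*, as the mean of its probes, they ran over -0.72 to -0.07. By ILMN_1215252 alone, Pax1-/- B4, B2 and B3 and WT B5 read 9.06, 9.08, 9.28 and 9.22 on chip 2. On the other chip they read 9.46, 9.28, 9.46 and 9.90.

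Beyond the 10 members, 69 genes of the BMP pathway were listed and 43 were tested. Between WT and EGFP(-) cells 12 were higher and 4 lower, 37.2% against 16.4% of all genes, with a median log2 difference of 0.26 against 0.06. By role, 3 of 11 receptors and co-receptors were higher and 2 lower, 6 of 14 secreted modulators were higher and 0 lower, 2 of 8 target genes were higher and 2 lower, 1 of 3 ligands was higher, and 0 of 7 SMADs and their regulators were called.

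The genes with the smallest adjusted p were *Bmp1*, a protease that cleaves Chordin (log2 1.004, limma adjusted p = 7.77e-06), the type I receptor *Bmpr1b* (1.001, adjusted p = 2.73e-05) and the receptor kinase *Ror2* (1.42, adjusted p = 3.02e-05), all higher in WT. The ligand antagonist *Nbl1* was higher by 1.31, *Kcp*, a secreted protein with Chordin-like repeats, by 1.38, and the BMP target *Id1* by 1.41. Lower in WT were the homeobox gene *Msx1* by -1.13 and *Gata2*, a factor also of blood and neural cells, by -2.39.

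Between genotypes, 2 of the 43 (4.65%) were called in Pax1-/-Pax9-/- cells against WT (1 without the library labelled Pax1-/-Pax9-/- B1), where 6.86% of all genes were, 3 (6.98%) in Pax1-/-Pax9+/- cells against WT, where 4.78% were, and 4 (9.3%) in Pax1-/-Pax9+/- against Pax1-/- cells, where 8.14% were. In Pax1+/- and Pax1-/- cells against WT, 0 were called by limma, where 0.419% and 0.247% of all genes were. At an unadjusted p under 0.05, 9 and 7 of the 43 passed, against 1855 and 1294 of all 13373 genes. Against WT, *Tll1*, a protease related to *Bmp1*, was lower and *Tob1*, which restrains BMP SMADs, higher in both compound mutants, and *Dlx5*, a homeobox factor of skeletal cells, was higher in Pax1-/-Pax9+/- cells (1.94-fold, adjusted p = 0.025). *Tll1* levels spread widely in WT (SD 1.25, n = 5) and overlapped those of the mutants. Against Pax1-/-, *Gdf1*, *Nbl1*, *Tob1* and *Dlx5* were higher in Pax1-/-Pax9+/- cells. With chip series as a term 0 of these were called in Pax1-/-Pax9+/- cells and 1 pathway gene in Pax1-/-Pax9-/- cells, and all genes called in Pax1-/-Pax9+/- against WT numbered 21 in place of 639 (1 with chips 1 and 2 alone). Between the compound mutants 0 of the 43 were called, where 0.314% of all genes were. At an unadjusted p under 0.05, 5 of the 43 passed, against 1121 of all 13373 genes.

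Over the 21 EGFP(+) replicates, the tested gene most like *Bmp4* in pattern was *Wbp1* (Pearson r = 0.90), that most like *Id4* was *Dipk2a* (r = 0.88), and that most like *Gdf10* was *Foxc2*, a forkhead factor of the sclerotome (r = 0.83). These correlations are descriptions, since the replicates share genotypes, chips and sorts.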

How the data were processed

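Per the labels and the study's methods, RNA of sorted E12.5 cells (RIN at least 7.0) was amplified and hybridised to Illumina MouseWG-6 BeadChips. The authors exported probe intensity with background subtraction and no normalization, and the deposited table pairs each intensity with a detection p-value. A table of log2 values that the authors deposited after quantile normalization in GeneSpring, with an added constant that is not stated, served as an alternative only. Every value column was used (0 left out).

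Intensities were background corrected with normexp (offset 16), put on the log2 scale and quantile normalized in limma 3.58.1 (R 4.3.3). Probes with detection p under 0.05 on at least 3 arrays were kept, probes of a gene averaged, and arrays of the same group and replicate name averaged. Fits with a chip or chip series term, or with chip as a random block, took each array as its own sample. Models were fitted with lmFit and eBayes, over EGFP(-), WT, Pax1+/- and Pax1-/- cells for the sort and over the 5 EGFP(+) genotypes for the rest, with Benjamini-Hochberg adjustment over all genes (or all kept probes). The number of arrays limits the precision. Scripts were tested on simulated data. EGFP(-) samples were grouped by their genotype label, although their treatment text names GFP(+) cells.

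The members and gene lists were chosen with earlier results of these data known. All 10 members are named, with at most 8 called pathway genes a comparison by smallest adjusted p, and for 3 members the gene of highest correlation. Markers and genes behind a single result were named after their values were seen. Same-named replicates of different groups did not deviate together (46 pairs, median r = 0.0013, 1 above 0.1), so replicate names were not used as pairs. Alternatives covered background, scaling, probe choice, filter, chip terms, left-out replicates and the methods' tests without their post hoc test.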

Additional observations from a re-analysis of the deposited data

Results flagged for a closer look

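WT replicate B7 read 5.16 (5.156) with the dimmer *Gdf5* probe, ILMN_1256083, which stood apart from the other WT replicates at 4.74 to 4.86. Of 42 groups of replicates looked at, 1 held such a value, and chance alone can give such a value.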

How the results depend on the processing

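The count of members called between WT and EGFP(-) cells stayed between 2 and 4 over all alternatives run, against 3. In Pax1-/-Pax9+/- cells against WT, 2 members were called. This became 1 with a floor at 1, with the authors' log2 values, with chip series as a term and with chip as a random block, and 0 with only the compared groups, with chips 1 and 2 alone and with the methods' tests after adjustment. In Pax1-/-Pax9-/- cells against WT, 3 became 2 with a floor at 1, with the authors' log2 values and with chip series as a term, *Bmp4* being lost in each, stayed 3 with chips 1 and 2 alone, where *Chrd* was called and *Bmp4* was not, and became 1 with only the compared groups and 0 with the methods' tests after adjustment. Where 0 members were called, 1 was called in Pax1+/- cells with median centring, in Pax1-/- cells with the authors' log2 values, each array its own sample, a chip or chip series term, and the methods' tests at an unadjusted p, between Pax1-/-Pax9+/- and Pax1-/- cells with the brightest probe, and between the compound mutants with only those groups or the methods' tests at an unadjusted p. For the compound mutants, the methods' tests here used 1 Welch ANOVA p over WT and both compound genotypes for every pair. The post hoc test named in the study's methods was not run, so these counts are not the study's pairwise results. The cause of the changes in count was not tested. Leaving out each replicate in turn gave 3 to 4 members for WT against EGFP(-), 0 to 1 for Pax1+/-, 0 to 1 for Pax1-/-, 2 to 3 for Pax1-/-Pax9+/- and 3 to 3 for Pax1-/-Pax9-/-, each against WT. In the comparisons of *Pax9* copies it gave 0 throughout. With replicate names as a block, 4 members were called between WT and EGFP(-), 3 in Pax1-/-Pax9+/- and 3 in Pax1-/-Pax9-/- cells, and 4 of 24 replicates correlated best with one of their own name. All genes called in Pax1-/-Pax9-/- cells against WT numbered 917, and 225 with chip series as a term, 224 with chip as a random block, 89 with chips 1 and 2 alone and 1428 with the replicate block. For Pax1-/-Pax9+/- cells they numbered 639, 21, 19, 1 and 1217. Between Pax1-/-Pax9+/- and Pax1-/- cells 1089 became 24 with chip series as a term. Chips 3 to 5 alone, an alternative chosen after seeing the data, gave 4 members for WT against EGFP(-) and 0 for Pax1+/- and Pax1-/-. *Nog*, *Gdf5*, *Bmp5* and *Bmp7* lie near background, which limits what their values can show.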
